A study of Mus musculus with 9 samples.

Results

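The Hox genes of 3 mouse cell lines are described here, as the genes that carry positional identity along the body. Members were the non-control probe sets whose single gene symbol is Hoxa, Hoxb, Hoxc or Hoxd followed only by a number, and each gene was read from its brightest probe set, the one with the highest mean over the 9 arrays. This gave 33 of the 39 mouse Hox genes and 33 of the 18193 genes measured: 9 of 11 Hoxa genes, 9 of 10 Hoxb genes, 7 of 9 Hoxc genes and 8 of 9 Hoxd genes. They are covered by 48 probe sets, and 11 genes have several. The remaining Hox genes were not analysed here.

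Hox genes encode homeodomain transcription factors and lie in 4 clusters, on chromosomes 6 (Hoxa), 11 (Hoxb), 15 (Hoxc) and 2 (Hoxd). Genes with the same number in different clusters are paralogs. Within a cluster, low-numbered genes are switched on earlier and further towards the head than high-numbered genes, and the pattern set in the embryo is often kept by adult cells and by cells in culture. Polycomb proteins keep Hox genes silent, Trithorax proteins keep them active, retinoic acid induces the low-numbered ones, and Pbx and Meis proteins bind DNA together with Hox proteins. In the airway, Hoxa5 is needed for normal development of the trachea and lung.

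Total RNA was measured on Affymetrix MG-430 2.0 arrays, 3 per line. Both tracheal lines are epithelial and non-tumorigenic and came from mice aged 3 weeks: the wild-type line from a mouse that kept Gprc5a, a tumour suppressor of the lung, and the knockout line from a Gprc5a knockout mouse. MDA-F471, the tumour line, comes from an adenocarcinoma in the lung of a female mouse lacking Gprc5a, killed 16 months after the tobacco carcinogen NNK was injected intraperitoneally. All lines are labelled with the strain C57/BL6 x sv129, and the knockout and tumour lines share the loss of Gprc5a. Each group is 1 line, so genotype, line and handling cannot be told apart, and the tumour line also differs from the others in organ, carcinogen exposure and age of the mouse. Whether the replicates were grown as separate cultures is not said in the labels. The p-values therefore cover only the variation among these arrays, which may be technical.

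The labels were checked first on Gprc5a, whose mean log2 signal was 8.57 ± 0.22 (SD, n = 3) in wild-type cells, 7.16 ± 0.06 in knockout cells, and 7.02 ± 0.06 in tumour cells. The epithelial markers Epcam and Cdh1 were far above background in all lines, with Epcam at 11.74 ± 0.21, 11.73 ± 0.17 and 12.03 ± 0.12. The airway basal keratin Krt5 read 14.46 ± 0.01 and 14.38 ± 0.09 in the tracheal lines and 8.43 ± 0.17 in the tumour line. Nkx2-1, a lung and thyroid lineage factor, lay near background in every line, at 5.18 ± 0.11, 5.47 ± 0.20 and 5.35 ± 0.12. A gene was called on when all 3 arrays of a line lay above a control floor of 5.15 log2. The floor is the 95th percentile of 27 probe sets for Bacillus subtilis transcripts, which detect RNA that mouse cells do not make. By this rule Gprc5a itself was on in the knockout and tumour lines, which lack it. A signal above the floor therefore does not by itself show that an intact gene is expressed. Fewer cells of a type and less RNA per cell cannot be told apart in such bulk RNA, and probe sets differ in brightness, so levels are compared between lines and not between genes.

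The start regions of 4 of the genes that differed most are shown because their promoters can be searched for the motifs of the factors described further down. They are the 250 bases before the RefSeq start on the gene's own strand, 5′ to 3′, from GRCm38.p6. Capitals mark matches to a Hox-Pbx motif (TGATNNAT, reverse ATNNATCA), a Meis motif (TGACAG, reverse CTGTCA) or a nuclear receptor hexamer (AGGTCA, reverse TGACCT), searched on both strands. The hexamer is a single unit of the paired sites that retinoic acid receptors bind, and many other nuclear receptors share it.
Hoxa2, chr6:52164832-52165081, minus strand: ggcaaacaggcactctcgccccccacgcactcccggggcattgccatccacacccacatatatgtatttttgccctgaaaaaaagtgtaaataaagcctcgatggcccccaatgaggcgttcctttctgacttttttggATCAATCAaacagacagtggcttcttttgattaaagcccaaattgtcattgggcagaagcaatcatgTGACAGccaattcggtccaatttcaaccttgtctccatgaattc
Hoxa9, chr6:52227371-52227620, minus strand: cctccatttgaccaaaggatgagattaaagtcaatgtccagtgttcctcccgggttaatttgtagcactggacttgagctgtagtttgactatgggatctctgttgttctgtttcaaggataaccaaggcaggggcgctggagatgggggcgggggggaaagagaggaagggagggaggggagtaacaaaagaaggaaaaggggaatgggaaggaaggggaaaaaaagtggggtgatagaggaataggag
Hoxc4, chr15:103034145-103034394, plus strand: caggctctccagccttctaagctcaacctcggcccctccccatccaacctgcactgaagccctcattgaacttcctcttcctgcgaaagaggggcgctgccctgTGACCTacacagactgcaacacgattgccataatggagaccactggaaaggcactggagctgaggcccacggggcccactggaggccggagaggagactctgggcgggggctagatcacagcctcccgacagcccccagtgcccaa
Hoxd8, chr2:74704365-74704614, plus strand: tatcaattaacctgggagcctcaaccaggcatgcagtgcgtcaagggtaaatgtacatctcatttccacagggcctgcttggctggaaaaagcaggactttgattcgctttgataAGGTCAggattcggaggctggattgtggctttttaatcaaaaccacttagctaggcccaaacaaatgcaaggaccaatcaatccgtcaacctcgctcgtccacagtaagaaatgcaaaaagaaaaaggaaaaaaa
In the Hoxa2 window a Hox-Pbx match, ATCAATCA, begins 111 bases before the start and a Meis match begins 44 bases before it. The Hoxa9 window holds none of the 3 motifs. The Hoxc4 window holds TGACCT 146 bases before the start and the Hoxd8 window holds AGGTCA 135 bases before it.

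RefSeq start regions were found for 19 of the Hox genes, in 21 windows. The nuclear receptor hexamer stood in 5 of the 21 windows (23.8%, against 14.0% of 32851 windows of all genes), those of Hoxb4, Hoxc4, Hoxd3, Hoxd8 and Hoxd10. The Hox-Pbx motif stood in 3 (14.3%, against 7.68%), those of Hoxa2, Hoxb1 and Hoxd11. The Meis motif stood in 2 (9.52%, against 15.9%), those of Hoxa2 and Hoxa3. A match is a description of letters and not a bound site. The windows were also rich in CpG, with a median observed-to-expected ratio of 0.69 in the Hox windows against 0.37 over all windows, though single Hox windows ranged from 0.16 to 1.11.

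Most of the measured Hox genes were on in each line. Above the floor on all 3 arrays were 21 of 33 genes in wild-type cells (63.6%), 22 in knockout cells (66.7%) and 18 in tumour cells (54.5%), against 81.7%, 81.5% and 81.6% of all genes. The tumour line had fewer Hoxa genes on than the tracheal lines, 5 of 9 against 8 in the wild-type line and 7 in the knockout line. Hoxb genes were on for 5 of 9 in wild-type cells, 7 in knockout cells, and 5 in tumour cells. Hoxc and Hoxd counts were equal in all lines, at 5 of 7 and 3 of 8. These counts have no test. With the highest control value as the floor, the counts were 12 in wild-type cells, 16 in knockout cells and 11 in tumour cells, so many of the genes called on lay only slightly above background. By that floor the Hoxc counts were 3, 4 and 4 and the Hoxd counts 1, 3 and 1, and so were no longer equal.

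**Figure D1:**
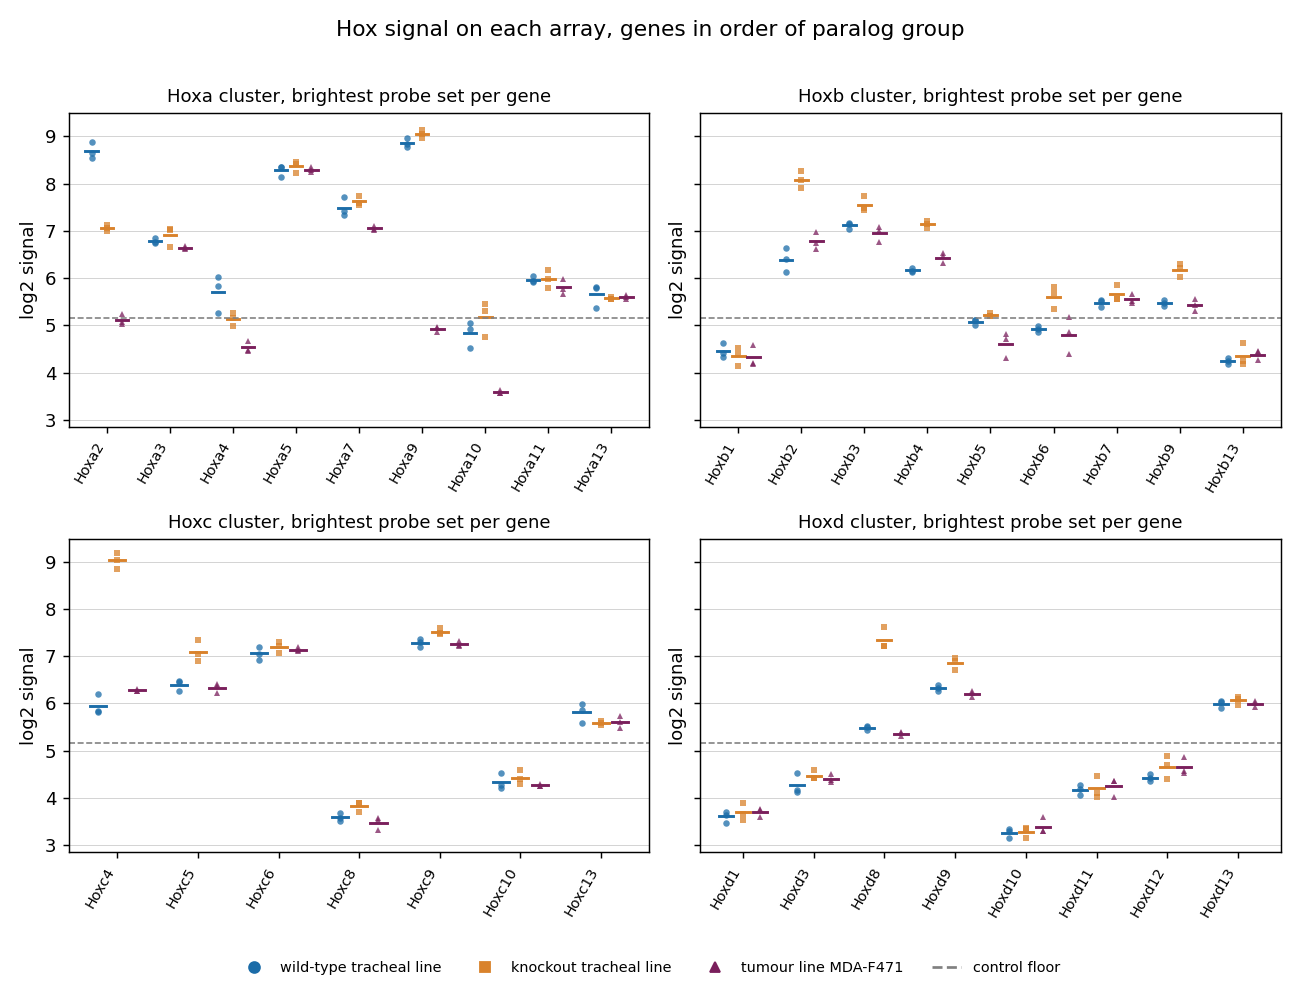
The log2 signal of each Hox gene's brightest probe set on each array, in 1 panel per cluster with genes ordered by number; points are arrays, short bars are means of 3 arrays, and the dashed line is the control floor of 5.15. Hoxa2 and Hoxa9 lie well below the tracheal lines in the tumour line, and Hoxb2, Hoxc4 and Hoxd8 stand high in the knockout line.

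By this floor 18 of the 33 Hox genes were above background on all 9 arrays. Their line means ran from 5.36 to 9.03, so the dimmest lay just above the floor. In each single line 81.5% to 81.7% of all genes were on, and the share on in all 3 lines was not counted. At the other end, 9 Hox genes lay under the floor on all 9 arrays, with line means of 3.26 to 4.66: Hoxb1, Hoxb13, Hoxc8, Hoxc10, Hoxd1, Hoxd3, Hoxd10, Hoxd11 and Hoxd12. No difference passed an adjusted p of 0.05 in any comparison for 16 genes, whose largest difference was 0.26 log2. Of these, 8 were above the floor on all 9 arrays, namely Hoxa3, Hoxa5, Hoxa11, Hoxa13, Hoxb7, Hoxc6, Hoxc13 and Hoxd13. Hoxa11, Hoxa13, Hoxb7, Hoxc13 and Hoxd13 lay close to it, with line means of 5.48 to 6.07. None of them was above the highest control value of 5.96 on all 9 arrays. These statements hold for the brightest probe set of each gene. Hoxc6 was even by that probe set, at 7.06 ± 0.13, 7.19 ± 0.12 and 7.14 ± 0.04 (SD, n = 3), but its dimmest read 5.19 ± 0.12, 5.56 ± 0.14 and 5.26 ± 0.08 and was higher in knockout than in wild-type cells by 0.37 log2 (limma adjusted p = 0.0249). The dimmer Hoxd13 probe set was under the floor on all wild-type and tumour arrays, at means of 4.89 ± 0.16 and 5.09 ± 0.05. Hoxa3 and Hoxa5 also depend on the probe set, as shown further down.

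Differences were tested with limma over all 18193 genes with Benjamini-Hochberg adjustment, and a gene was called at an adjusted p under 0.05 and at least 2-fold. Between knockout and wild-type lines 4 of the 33 Hox genes were called (12.1%, against 4.88% of all genes), 3 higher and 1 lower in the knockout line, where 1.9% and 2.98% of all genes were. Between tumour and knockout lines 6 were called (18.2%, against 14.2%), all lower in the tumour line; 6.38% of all genes were lower and 7.79% higher. Between tumour and wild-type lines 4 were called (12.1%, against 16.6%), all lower in the tumour line; 8.46% of all genes were lower and 8.09% higher. The last of these shares is below the background. Median differences over the 33 genes were 0.14, -0.26 and -0.06 log2, with medians over all genes within 0.01 of 0. The arrays of the lines compared did not overlap for 14, 17 and 12 of the 33 genes, against 39.1%, 52.3% and 54.7% of all genes. The comparisons share arrays, so their counts are not independent. Every gene that differed at least 2-fold also had an adjusted p under 0.05, so the fold alone set these counts.

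**Figure D2:**
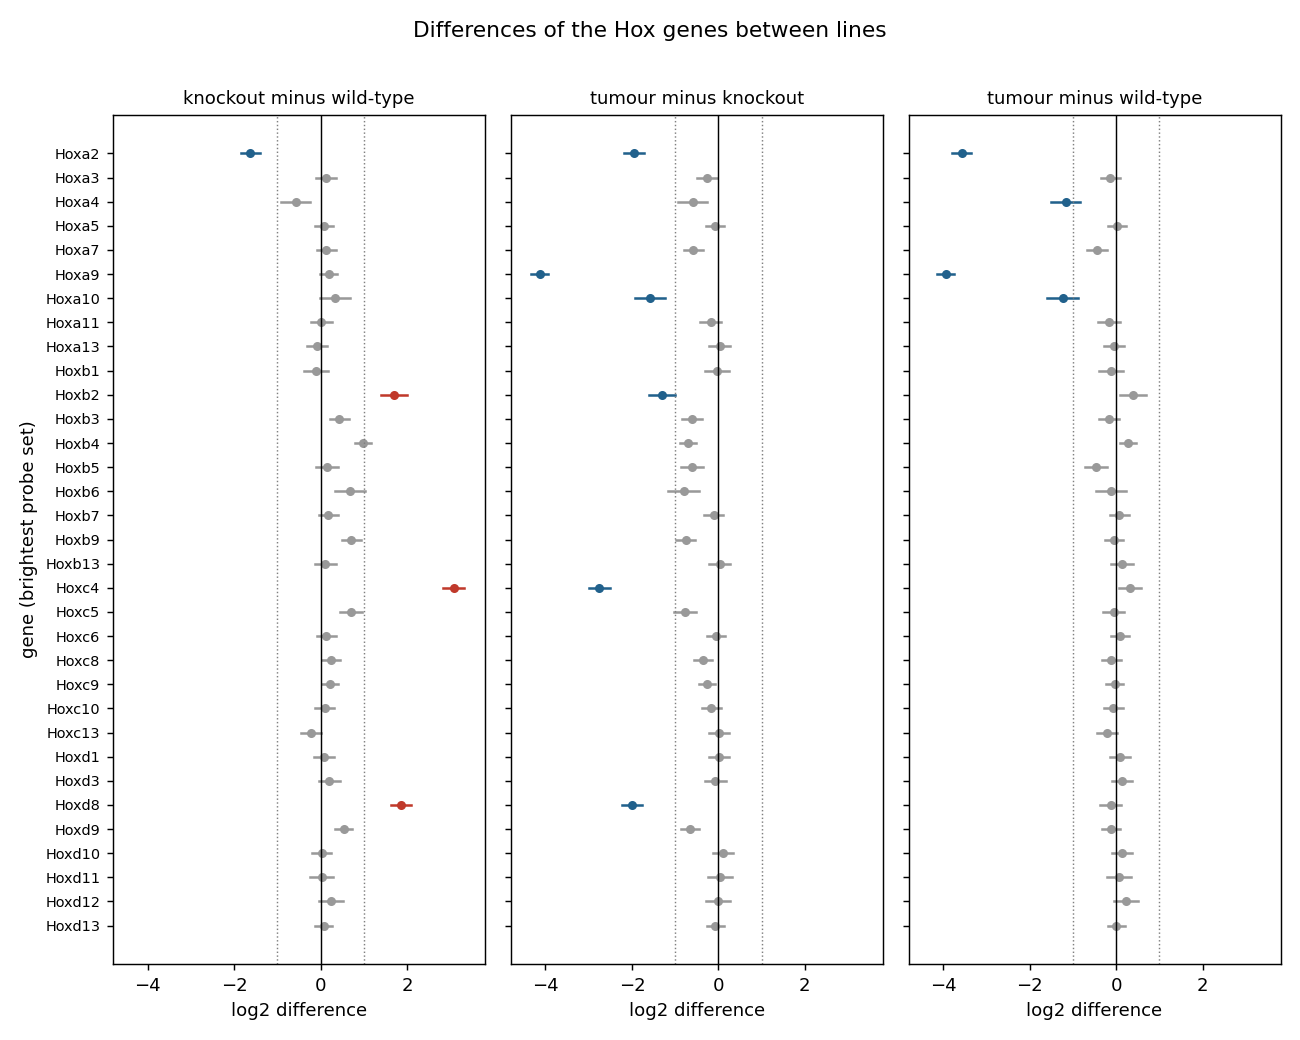
Log2 difference of each Hox gene's brightest probe set in the 3 comparisons, with 95% confidence intervals from limma; dotted lines mark 2-fold and coloured points are called genes. Hoxc4 is 3.07 higher in knockout than wild-type, and Hoxa9 is lower by about 4 log2 in the tumour line than in both others.

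Among the Hoxa genes, Hoxa2, which patterns the hindbrain and the second pharyngeal arch, differed between all 3 lines. Its probe set read 8.54, 8.87 and 8.65 in wild-type cells, 7.06, 7.13 and 6.99 in knockout cells, and 5.25, 5.06 and 5.03 in tumour cells. The lines did not overlap, and 1 of the 3 tumour arrays lay above the floor. The knockout line was lower than the wild-type line by 3.09-fold (log2 difference -1.63 ± 0.10 SE, limma adjusted p = 2.36e-08). The difference of signals was -1.95 ± 0.10 log2 between tumour and knockout lines (limma adjusted p = 8.17e-10) and -3.57 ± 0.10 between tumour and wild-type lines (limma adjusted p = 7.44e-13). No fold is given for these because the tumour mean lay under the floor.

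Hoxa9, a gene of the posterior body that is also known for its role in leukaemia, was on in both tracheal lines and under the floor in the tumour line. By brightest probe sets it was the only Hox gene with that pattern, which 0.676% of all genes showed. A Hoxa3 probe set with a lower mean over the 9 arrays showed it too, with means of 8.06 ± 0.10, 7.25 ± 0.21 and 4.80 ± 0.14. In both tracheal lines it was brighter than the probe set that stood for Hoxa3, which had means there of 6.78 ± 0.06 and 6.91 ± 0.21. The brightest Hoxa9 probe set read 8.77, 8.97 and 8.84 in wild-type cells, 8.96, 9.14 and 9.06 in knockout cells, and 4.97, 4.86 and 4.94 in tumour cells. The tracheal lines overlapped and the tumour line lay far below them. Tumour cells were at least 14.96-fold below knockout cells (log2 difference -4.13 ± 0.09 SE, limma adjusted p = 5.12e-14) and at least 13.1-fold below wild-type cells (-3.94 ± 0.09, limma adjusted p = 6.44e-14). Between the tracheal lines the difference was 0.19 ± 0.09 log2, with a 95% interval from -0.01 to 0.39 (limma adjusted p = 0.158). A second Hoxa9 probe set differed far less and was not called: its means were 7.49 ± 0.11, 7.64 ± 0.05 and 7.30 ± 0.08. Its tumour signal differed by -0.34 ± 0.09 log2 from knockout cells (limma adjusted p = 0.0106) and by -0.19 ± 0.09 from wild-type cells (limma adjusted p = 0.134).

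Hoxa10 was also called lower in the tumour line, but near or under the floor. It read 4.92, 4.52 and 5.05 in wild-type cells, 5.46, 5.30 and 4.75 in knockout cells, and 3.58, 3.63 and 3.57 in tumour cells. The differences of signals were -1.58 ± 0.16 log2 from the knockout line (limma adjusted p = 1.22e-06) and -1.24 ± 0.16 from the wild-type line (limma adjusted p = 1.32e-05), and no fold is given. Wild-type and tumour arrays were all under the floor, so the difference between them is between signals at background. The knockout arrays lay on both sides of the floor, so the difference from the knockout line rests on signals near it. Both differences count among the calls above. The second Hoxa10 probe set was even, at 4.39 ± 0.09, 4.39 ± 0.09 and 4.45 ± 0.07.

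Hoxa4 was called between the tumour and wild-type lines. It read 6.02, 5.84 and 5.26 in wild-type cells, 5.15, 4.98 and 5.26 in knockout cells, and 4.46, 4.49 and 4.67 in tumour cells. The tumour line was at least 1.47-fold lower than the wild-type line against the floor (log2 difference of signals -1.16 ± 0.16 SE, limma adjusted p = 1.57e-05). The other Hoxa4 probe set was under the floor in every line, at 3.88 ± 0.21, 3.73 ± 0.04 and 3.56 ± 0.21, and was not called. Hoxa7 showed a smaller step in the same direction, with means of 7.49 ± 0.20, 7.63 ± 0.10 and 7.05 ± 0.05. It was lower in the tumour line by 0.58 log2 than in the knockout line (difference -0.58 ± 0.11, limma adjusted p = 0.000347), which is under 2-fold.

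In the other clusters the calls were of genes high in the knockout line. Hoxc4 gave the largest difference of the 33 genes between the tracheal lines. Its probe set read 5.82, 5.84 and 6.19 in wild-type cells, 9.04, 8.85 and 9.19 in knockout cells, and 6.31, 6.26 and 6.26 in tumour cells. The knockout arrays stood apart from all others. The knockout line was higher than the wild-type line by 8.42-fold (log2 difference 3.07 ± 0.11 SE, limma adjusted p = 7.17e-11), and the tumour line was lower than the knockout line by 6.73-fold (-2.75 ± 0.11, limma adjusted p = 5e-11). Wild-type arrays at 5.82 and 5.84 lay under the highest control value of 5.96, so the fold between the tracheal lines rests in part on background. The tumour and wild-type lines differed by 0.32 log2 (limma adjusted p = 0.0307), under 2-fold.

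Hoxd8 was next by size. It read 5.44, 5.50 and 5.52 in wild-type cells, 7.62, 7.22 and 7.21 in knockout cells, and 5.39, 5.37 and 5.31 in tumour cells. The knockout line was higher than the wild-type line by 3.64-fold (log2 difference 1.86 ± 0.11 SE, limma adjusted p = 8.14e-09) and the tumour line lower than the knockout line by 3.98-fold (-1.99 ± 0.11, limma adjusted p = 1e-09). The wild-type and tumour signals lay just above the floor, so these folds rest in part on background. The other Hoxd8 probe set was not called: its means were 4.60 ± 0.08, 5.30 ± 0.07 and 4.77 ± 0.09, with wild-type and tumour arrays under the floor, and the knockout line was higher than the wild-type line by 0.70 ± 0.09 log2 (limma adjusted p = 0.000154).

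Hoxb2, a hindbrain patterning gene, read 6.12, 6.65 and 6.41 in wild-type cells, 8.27, 8.08 and 7.90 in knockout cells, and 6.75, 6.97 and 6.61 in tumour cells. The knockout arrays were again above all others, while the tumour and wild-type arrays overlapped. The knockout line was higher than the wild-type line by 3.23-fold (log2 difference 1.69 ± 0.14 SE, limma adjusted p = 3.2e-07) and the tumour line lower than the knockout line by 2.48-fold (-1.31 ± 0.14, limma adjusted p = 1.47e-06).

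Further differences were under 2-fold. Without a fold threshold, 11 Hox genes differed between the knockout and wild-type lines (33.3%, against 26.4% of all genes). The 9 that were higher in the knockout line (10.2% of all genes were) were Hoxb2, Hoxb3, Hoxb4, Hoxb6, Hoxb9, Hoxc4, Hoxc5, Hoxd8 and Hoxd9, and the 2 that were lower (16.2% of all genes were) were Hoxa2 and Hoxa4. Of the 9 Hoxb genes 5 passed, and Hoxb1, Hoxb5, Hoxb7 and Hoxb13 did not. Hoxb4 read 6.15, 6.13 and 6.21 in wild-type cells, 7.21, 7.06 and 7.15 in knockout cells, and 6.46, 6.53 and 6.32 in tumour cells. Its difference between the tracheal lines was 0.98 ± 0.09 log2 (limma adjusted p = 1.04e-06), or 1.97-fold and so just short of a call. Without knockout replicate 2 it was 1.02 and was called. Between the tumour and knockout lines 17 Hox genes passed without a fold threshold (51.5%, against 44.5%), all lower in the tumour line, as were 20.7% of all genes, with 23.8% higher. Between the tumour and wild-type lines 9 passed (27.3%, against 47.3%), 3 higher and 6 lower in tumour cells, where 24% and 23.4% of all genes were.

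Several genes gave different answers from different probe sets, and p-values for second probe sets are adjusted over all non-control probe sets. Hoxa5 is the main case. Its brightest probe set, of the _x_at kind that can cross-hybridise, was even at 8.28 ± 0.12, 8.37 ± 0.12 and 8.29 ± 0.06. The other read 8.08, 8.31 and 8.07 in wild-type cells, 8.41, 8.46 and 8.29 in knockout cells, and 5.92, 5.95 and 6.20 in tumour cells. By that probe set Hoxa5 was lower in the tumour line than in the knockout line by 5.16-fold (log2 difference -2.37 ± 0.11 SE, limma adjusted p = 6.63e-09).

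Hoxa3 has 4 probe sets, and 1 of them differed between lines by over 2-fold. This _s_at probe set read 8.10, 7.95 and 8.14 in wild-type cells, 7.48, 7.07 and 7.18 in knockout cells, and 4.96, 4.70 and 4.75 in tumour cells. Tumour cells were at least 4.28-fold below knockout cells (log2 difference -2.44 ± 0.12 SE, limma adjusted p = 1.36e-08). The brightest read 6.78 ± 0.06, 6.91 ± 0.21 and 6.64 ± 0.04.

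Hoxb3 and Hoxc5 were called in the knockout line by second probe sets. The second of Hoxb3 read 5.56, 5.47 and 5.77 in wild-type cells, 7.62, 7.50 and 7.51 in knockout cells, and 5.40, 5.45 and 5.34 in tumour cells. It was higher in the knockout than in the wild-type line by 3.84-fold (log2 difference 1.94 ± 0.10 SE, limma adjusted p = 6.41e-08), where the brightest differed by 0.44 ± 0.11. The dimmest Hoxc5 probe set read 4.70, 4.13 and 4.38 in wild-type cells, 6.77, 6.24 and 6.28 in knockout cells, and 4.12, 4.02 and 4.10 in tumour cells. It was at least 2.43-fold higher in the knockout line than in the wild-type line (2.02 ± 0.16, limma adjusted p = 3.33e-06).

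**Figure D3:**
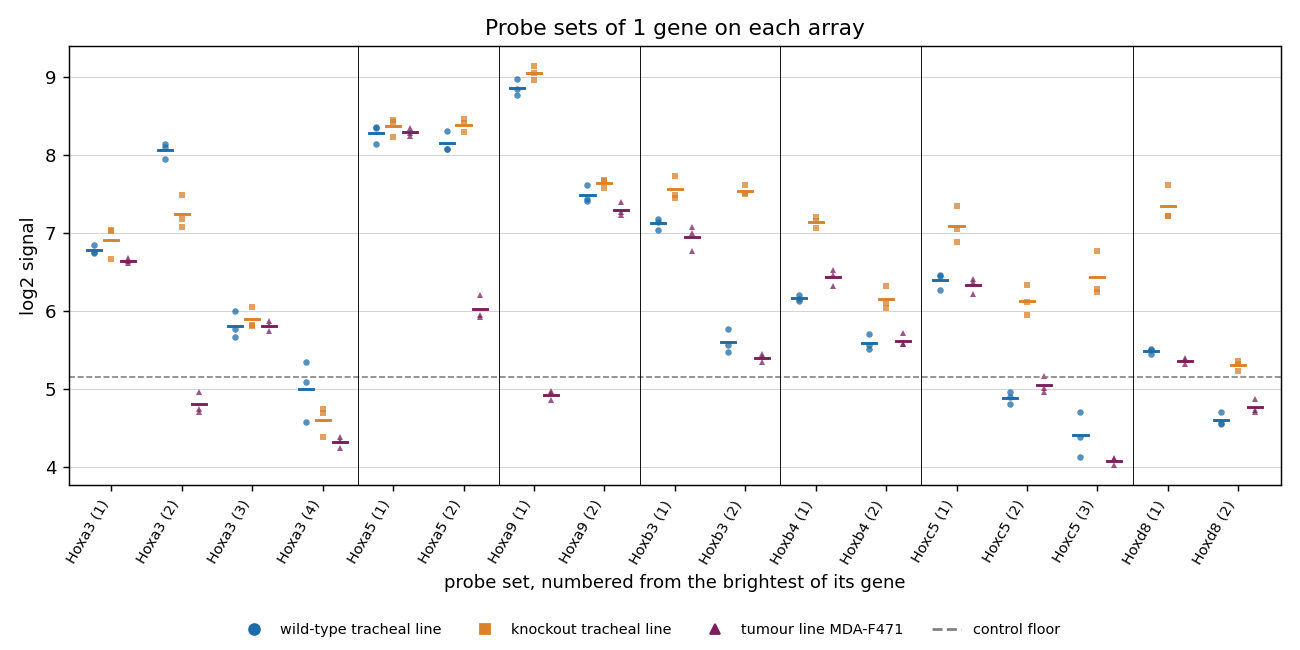
Log2 signal on each array for all probe sets of 7 Hox genes, numbered from the brightest of its gene; points are arrays, bars are means of 3 arrays and the dashed line is the control floor. The probe sets of Hoxa3, Hoxa5 and Hoxa9 differ in whether or how far the tumour line is low, while those of Hoxb3, Hoxb4, Hoxc5 and Hoxd8 are highest in the knockout line.

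Where a gene was counted if any of its probe sets was called, a count chosen after the data were seen, 6 Hox genes were called between the knockout and wild-type lines (18.2%, against 6.05% of all genes). Between the tumour and knockout lines there were 10, all lower in the tumour line (30.3%, against 18.2% in either direction, 10.1% higher and 8.06% lower). Between the tumour and wild-type lines there were 6, all lower (18.2%, against 20.7% and 10.2%). The last 6 were all Hoxa genes: Hoxa2, Hoxa3, Hoxa4, Hoxa5, Hoxa9 and Hoxa10.

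Some cofactors of Hox proteins differed; counts in the following lists stand against 4.88% of all genes called between knockout and wild-type lines (1.9% higher, 2.98% lower), 14.2% between tumour and knockout lines (7.79% higher, 6.38% lower) and 16.6% between tumour and wild-type lines. Of 5 Meis and Prep genes, Meis1 and Meis2 were called lower in the tumour line than in both others and Meis3 higher, and Meis2 was also lower in the knockout than in the wild-type line. Meis1, a cofactor of Hoxa9, read 7.73, 7.83 and 7.78 in wild-type cells, 7.48, 7.52 and 7.30 in knockout cells, and 4.77, 4.42 and 4.46 in tumour cells. Tumour cells were at least 4.88-fold below knockout cells (log2 difference -2.89 ± 0.11 SE, limma adjusted p = 1.3e-11). The other 2 Meis1 probe sets were not called and stayed above the floor in tumour cells, at 5.82 ± 0.03 and 5.55 ± 0.11. Meis2 had means of 9.72 ± 0.13, 8.32 ± 0.24 and 6.37 ± 0.15, and 3 of its 4 probe sets were called lower in tumour than in knockout cells. Of 3 Pbx genes measured, limma called 0 in each comparison at 2-fold, with 2, 2 and 1 at an unadjusted p under 0.05. Pbx2 was among these, with means of 9.54 ± 0.13, 9.17 ± 0.19 and 8.62 ± 0.09. Of the 6 ParaHox genes, relatives that lie outside the clusters, limma called 0 in each comparison, with 0, 2 and 0 at an unadjusted p under 0.05.

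Few chromatin regulators were called at 2-fold. Of 11 Polycomb repressive complex 2 genes, 1 was called lower between knockout and wild-type lines, and 1 higher and 1 lower between tumour and knockout lines. Between tumour and wild-type lines 1 was called higher and 2 lower, where 8.09% and 8.46% of all genes were. Jarid2, an accessory subunit, read 10.90, 11.18 and 10.75 in wild-type cells, 8.85, 8.80 and 8.59 in knockout cells, and 7.27, 7.35 and 7.29 in tumour cells. It was lower in the knockout than in the wild-type line by 4.59-fold (log2 difference -2.20 ± 0.11 SE, limma adjusted p = 1.84e-09), in all 3 of its probe sets. Ezh2, the methyltransferase of that complex, had means of 9.59 ± 0.11, 8.88 ± 0.13 and 10.96 ± 0.09, and was higher in tumour than in knockout cells by 2.08 log2 (limma adjusted p = 2.01e-10). Of 16 Polycomb repressive complex 1 genes, Phc1 and Phc2 were called higher in tumour than in knockout cells. Of 13 Trithorax-side genes, Psip1 was called higher in knockout than in wild-type cells, by 1.00 log2 in its brightest probe set and in all 3 of its probe sets. In the same list Wdr5 was called higher (1.06) and Kmt2c lower (-1.50, in 3 of 4 probe sets) in tumour than in knockout cells. Kmt2a, the best known activator of Hox genes, was even at 8.61 ± 0.18, 8.57 ± 0.14 and 8.67 ± 0.00. Smaller differences were more frequent. Without a fold threshold, limma adjusted p was under 0.05 between knockout and wild-type lines for 6 complex 2, 7 complex 1 and 3 Trithorax-side genes (26.4% of all genes). Between tumour and knockout lines these counts were 9, 11 and 6 (44.5%). Between tumour and wild-type lines they were 7, 10 and 7 (47.3%).

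Retinoic acid handling genes included some of the larger differences. Of 17 measured (with 1.9% of all genes higher in the knockout line), 2 were called higher in the knockout than in the wild-type line, and 2 higher and 3 lower (7.79% and 6.38% of all genes) in tumour than in knockout cells. Aldh1a1, which makes retinoic acid, read 6.10, 6.44 and 6.65 in wild-type cells, 10.55, 10.90 and 10.89 in knockout cells, and 8.18, 8.60 and 8.73 in tumour cells. It was higher in the knockout than in the wild-type line by 4.38 ± 0.16 log2 (limma adjusted p = 5.33e-11). Rdh10, which makes its precursor, had means of 8.71 ± 0.07, 10.58 ± 0.42 and 12.86 ± 0.18. Crabp2, which carries retinoic acid to its receptors, was lower in tumour than in knockout cells by 5.69 log2 (difference -5.69 ± 0.09, limma adjusted p = 2.04e-15). Of the receptors Rara, Rarb and Rarg limma called 0 in each comparison, with 1, 1 and 2 at an unadjusted p under 0.05. Other receptors in the list were called. Rxra was lower in tumour than in knockout cells (-1.15 log2, limma adjusted p = 8.95e-07) and than in wild-type cells (-1.30). Rxrb was called lower in tumour than in wild-type cells (-1.06), and Rxrg was not called.

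**Figure D4:**
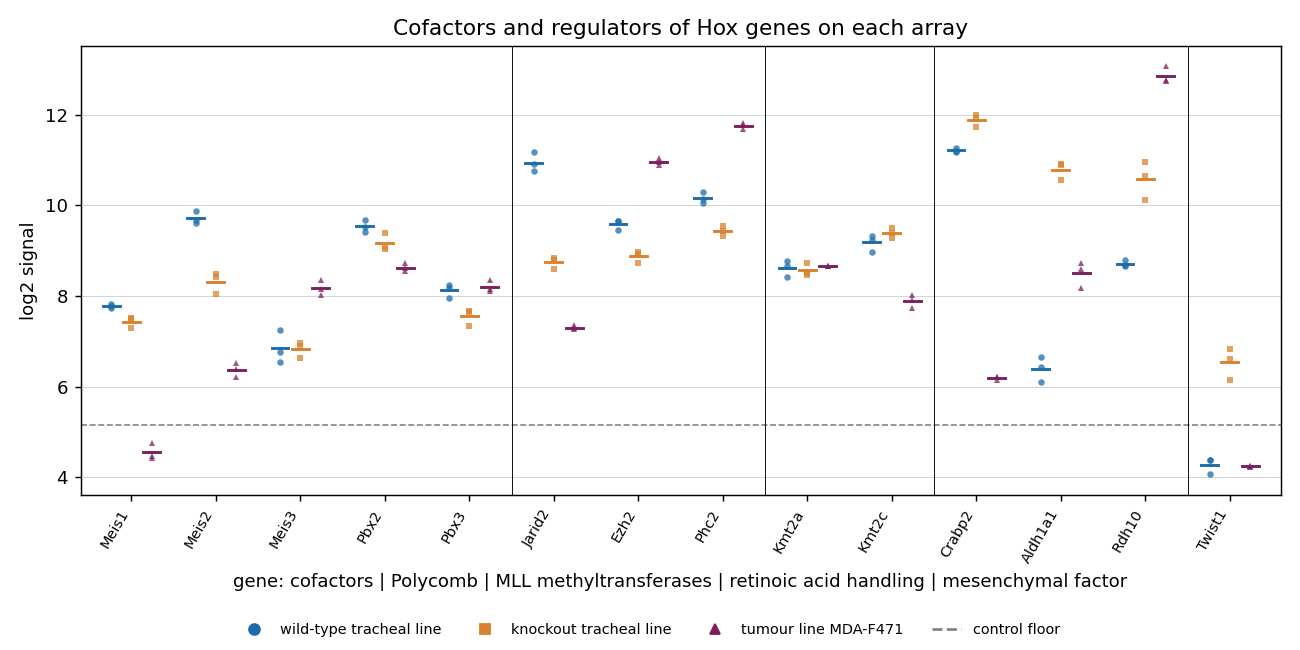
Log2 signal on each array for cofactors, Polycomb and Trithorax-side genes, retinoic acid handling genes and Twist1; points are arrays, bars are means of 3 arrays and the dashed line is the control floor. The brightest Meis1 probe set lies under the floor in the tumour line, Jarid2 steps down from wild-type to knockout to tumour, and Aldh1a1 and Twist1 are highest in the knockout line.

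Genes next to the clusters and other regional factors give the surroundings. Of 16 genes flanking the Hox clusters, limma called 0 between the tracheal lines, with 4 at an unadjusted p under 0.05, and Cbx5 was called higher in tumour than in knockout cells at 1.00 log2. Of 31 other regional transcription factors, 4 were called lower in the knockout than in the wild-type line (2.98% of all genes), and 4 higher and 8 lower (7.79% and 6.38%) in tumour than in knockout cells. Sox2 had means of 11.04 ± 0.07, 11.17 ± 0.07 and 3.61 ± 0.05, under the floor in tumour cells. Pitx1, a hindlimb and oral ectoderm factor, had means of 12.21 ± 0.16, 11.62 ± 0.09 and 6.07 ± 0.19. Tbx1, a factor of the pharynx, had means of 8.18 ± 0.26, 5.87 ± 0.17 and 5.02 ± 0.09. Eya1 went the other way, at 4.66 ± 0.30, 5.13 ± 0.31 and 8.40 ± 0.38. Gata6 and Foxa1 were also called higher in tumour than in knockout cells, by 2.35 and 2.62 log2.

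Markers of other cell types moved with some of these results. All 10 airway basal cell markers were above the floor in both tracheal lines and 6 in the tumour line, where their mean log2 signal per array was 6.77 to 6.90 against 12.25 to 12.39 in the wild-type line and 11.93 to 11.97 in the knockout line. In the knockout line 2 of them, Trp63 (-1.36) and Dsc3 (-2.52), were called lower than in the wild-type line. Of 10 epithelial markers, Krt18 (2.55) and Cldn7 (2.12) were called higher and Ovol1 (-1.26) lower in knockout than in wild-type cells. Of 7 smooth muscle markers Acta2 was called lower, with means of 11.24 ± 0.14, 9.84 ± 0.03 and 8.23 ± 0.15. The part of these differences in the Hox results was not tested. Of 15 fibroblast markers, 12, 14 and 12 were above the floor, and their mean per array was 6.45 to 6.50, 6.57 to 6.66 and 6.68 to 6.72. Twist1, a mesenchymal factor, was at least 2.61-fold higher in the knockout than in the wild-type line (log2 difference of signals 2.26 ± 0.15 SE, limma adjusted p = 2.37e-08) and was the only fibroblast marker called there. The defining fibroblast collagen Col3a1 was under the floor in all lines, at 4.09 ± 0.05, 4.17 ± 0.09 and 4.28 ± 0.03, and Col1a1 differed between the tracheal lines by -0.04 ± 0.10 log2. Other members were bright in every line: Fn1 had means of 11.25 ± 0.20, 11.09 ± 0.25 and 12.52 ± 0.07 and Fbln2 of 11.06 ± 0.38, 11.01 ± 0.17 and 12.28 ± 0.20, and both were called higher in tumour than in knockout cells. The part of these markers in the Hox results was not tested.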

How the data were processed

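The authors deposited log2 signals for 45101 probe sets on 9 arrays; how these were summarized and normalized is not given in the sources read. Array medians were 6.28 to 6.34, so the arrays had been brought to a common scale before deposit. Arrays give no counts, so their number limits the precision. Probe sets were named from the platform annotation: 34945 carried 1 symbol, 932 several and 9160 none, and 64 were controls. The brightest single-symbol probe set stood for each gene. Limma 3.58.1 in R 4.3.3 (lmFit, contrasts.fit and eBayes) fitted all 9 arrays with 6 residual degrees of freedom, and its two-sided p-values were adjusted by Benjamini-Hochberg. The fit was tested on simulated data. Where the dimmer line lay under the control floor on all 3 arrays, a fold is a lower bound against that floor. Values on every array are given for called Hox genes; of each list, counts and up to 4 called members are given, with other genes named after their values were seen. The members and gene lists were chosen with earlier results of these data known. Alternatives covered scaling, probe set choice, thresholds, the floor, the replicate block and leaving out each array.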

Additional observations from a re-analysis of the deposited data

How the results depend on the processing

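The 4 Hox genes called between the knockout and wild-type lines became 11 without a fold threshold and 8 at 1.5-fold, where 12% of all genes were called. The 6 called between the tumour and knockout lines became 17 without a fold threshold, 14 at 1.5-fold (26.8% of all genes) and 10 when any probe set counted. The 4 called between the tumour and wild-type lines became 9 without a fold threshold and 2 without the dimmest 40% of probe sets, which left 16 Hox genes and called 21.2% of all genes. Leaving out 1 array at a time gave 4 to 5, 6 to 6 and 4 to 4 calls, and 21 to 21, 22 to 23 and 18 to 18 genes above the floor in wild-type, knockout and tumour cells. With the highest control value as the floor, 12, 16 and 11 genes were on in wild-type, knockout and tumour cells. Hoxa5 between the tumour and wild-type lines (0.01 log2) changed sign under quantile normalization (-0.0065), the mean of its probe sets (-1.06), without _x_at and _s_at probe sets (-2.13), and when single arrays were left out (-0.057 without wild-type replicate 1, -0.0182 without tumour replicate 1; the range was -0.057 to 0.0463). With probe sets averaged per gene, Hoxa10 lost its calls (-0.76 and -0.59), as did Hoxa4 (-0.74), while other Hox genes gained calls. The counts were then 6, 8 and 4 of 33, where 4.08%, 11.6% and 13.9% of all genes were called. The replicate block gave 4, 6 and 4 calls. This says little about stability: every gene past 2-fold had an adjusted p under 0.05 with and without the block (highest 0.0119 without it), and the block leaves the differences of a balanced design as they are, so these counts could not move; the same holds for the intensity trend and for fits of 6 arrays. Same-numbered arrays had deviations correlated at -0.14 to 0.12 over 9 pairs, so the numbers were not taken to pair samples. Signals close to the control floor limit the folds of Hoxa2, Hoxa4, Hoxa10 and Hoxd8, and that of Hoxc4 between the tracheal lines.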
